A study of Rattus norvegicus with 24 samples.

Results

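The comparison described here set all 16 ovariectomized (OVX) rats of the series against the 8 sham-operated rats, and so covered all 24 rats. Its members were chosen by their surgery group in the sample titles, with the 8 rats of the OVX-TPTD group and the 8 rats of the OVX-vehicle group on one side and the 8 rats of the Sham-vehicle group on the other. The OVX-TPTD group was ovariectomized and then received teriparatide (TPTD), a fragment of human parathyroid hormone given for osteoporosis. Rats of the OVX-vehicle group had the same operation and were given vehicle. The Sham-vehicle group kept its ovaries through a sham operation and also received vehicle. All were Sprague-Dawley rats, 20 weeks old by the labels, and the tissue was the dorsal root ganglia (DRG) of lumbar levels L4-5, with 1 RNA sequencing library per rat. The rat titled OVX replicate 1 carries a surgery label of Sham, against its title. It stayed with the OVX-vehicle rats here, and the comparison was repeated without it.

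Cell bodies of sensory neurons lie in the DRG, and their fibres carry touch, temperature and pain from the body to the spinal cord. The ganglia also contain satellite glial cells, Schwann cells and resident immune cells. Ovariectomy removes the main source of estrogen and is used in rats as a model of the loss of ovarian hormones. Small-diameter sensory neurons release peptides such as substance P and calcitonin gene-related peptide, and both central and peripheral terminals of these cells take part in pain signalling.

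Over both OVX groups together, 7 of 12645 genes tested differed from the Sham-vehicle group, which was 0.0554% of the genes. Tac1, the substance P precursor gene, and Emid1 were higher, and Tmprss5, Adra2c, Acot1, LOC683313 and Clmn were lower. An eighth gene, C1ql1, fell below the filter on low counts and is described from the fit without that filter. That fit called 11 of 15600 entries (0.0705%), namely C1ql1, which had the smallest p, the 7 genes above, and Bdnf, Cish and Trpm8, which passed the filter but not the threshold in the filtered fit. The pooled comparison was the mean of the 2 OVX groups minus the Sham-vehicle group in the quasi-likelihood test of edgeR, where p values were adjusted over all genes tested (Benjamini-Hochberg) and the threshold was 0.05. A gene was said to hold in both groups when it passed there and each OVX group on its own differed in the same direction with an unadjusted p under 0.05. All 7 genes held in both groups (0.0554% of the genes tested). Both single comparisons used the same 8 Sham-vehicle rats and are not independent of each other. The pooled difference is their mean, so a gene that passes there will mostly meet this rule, which removed none of the 7. An adjusted p under 0.05 in both single comparisons left 1 gene, Tac1.

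Each rat had between 15573490 and 19069926 counts. The median total was 18374928.5 in OVX-TPTD, 16916533 in OVX-vehicle and 17291323.5 in Sham-vehicle rats. The scaling factors lay between 0.969 and 1.02. After thinning to the lowest total, 4 genes were called, namely Tac1, Adra2c, Tmprss5 and LOC683313. Entries for ribosomal RNA took 0.209% to 0.809% of the counts in OVX-TPTD rats, 0.22% to 0.639% in OVX-vehicle rats and 0.188% to 2.88% in Sham-vehicle rats, and the highest shares were those of Sham-vehicle replicates 2 and 3. Pan-neuronal genes were all detected, with a summed level of 8576 to 9528 FPKM in OVX-TPTD rats, 8806 to 9281 FPKM in OVX-vehicle rats and 8337 to 9465 FPKM in Sham-vehicle rats. FPKM are fragments scaled to the width of the transcript and to the mapped fragments of the rat. In whole ganglia, fewer cells of a type and less RNA per cell cannot be told apart.

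C1ql1 encodes a secreted protein of the C1q family that binds the adhesion receptor Adgrb3, and it is known from the mouse cerebellum, where climbing fibres use it to organise synapses on Purkinje cells. The deposited table places it at chr10:91040005-91047177 of rn6, on the minus strand. Its counts were 0 to 4 in OVX-TPTD rats (median 1.5), 0 to 3 in OVX-vehicle rats (median 0.5) and 7 to 35 in Sham-vehicle rats (median 18.5). Every one of the 16 OVX rats lay below every one of the 8 Sham-vehicle rats. The counts summed to 12 over the OVX-TPTD rats, 6 over the OVX-vehicle rats and 144 over the Sham-vehicle rats. No count was found in 3 OVX-TPTD and 4 OVX-vehicle rats, among them OVX-vehicle replicate 1.

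In FPKM, C1ql1 averaged 0.0595 ± 0.0598 in OVX-TPTD rats, 0.0329 ± 0.0458 in OVX-vehicle rats and 0.765 ± 0.374 in Sham-vehicle rats (SD, n = 8 each). Without the filter, the pooled log2 difference of C1ql1 was −3.99 (SE 0.394, edgeR adjusted p = 1.4e-06 over 15600 entries), and it ranked 1 of all entries. The difference was −3.58 (SE 0.466, edgeR adjusted p = 0.000393) for OVX-TPTD and −4.41 (SE 0.526, edgeR adjusted p = 7.54e-05) for OVX-vehicle, both against Sham-vehicle. Between OVX-TPTD and OVX-vehicle, the log2 difference was 0.82 (SE 0.796, unadjusted p = 0.31 and adjusted p = 0.983 in edgeR). The filter asked for about 10 counts in 8 rats, and C1ql1 reached 10 counts in only 6 rats, all Sham-vehicle. C1ql1 is named because the fit without the filter called it, and it was chosen after its values were seen.

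C1ql1 was also called in each of 24 fits that left out 1 rat (edgeR adjusted p from 5.77e-07 to 6.81e-06). Its counts did not overlap between OVX and Sham-vehicle rats, so leaving out 1 rat could hardly change the call. These fits are a description and no independent support. C1ql1 was called without Sham-vehicle replicates 2 and 3 (adjusted p = 1.23e-05), with the ribosomal RNA share in the model (adjusted p = 2.27e-05) and in DESeq2 without a filter (adjusted p = 1.25e-13). With OVX-vehicle replicate 1 counted as a Sham-vehicle rat, its adjusted p in edgeR was 0.00048. Markers of oligodendrocytes and other central nervous system cells, which a ganglion sample could hold near the root, summed to 9.75 to 15.1 FPKM in OVX-TPTD rats, 9.26 to 12.8 FPKM in OVX-vehicle rats and 8.29 to 18.1 FPKM in Sham-vehicle rats, and these ranges overlapped. Whether such tissue had a part in the C1ql1 difference was not tested.

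Across the 15600 entries with any count, C1ql1 was the only 1 for which all 16 OVX rats lay beyond all 8 Sham-vehicle rats (0.00641%). All 8 OVX-TPTD rats lay beyond all Sham-vehicle rats for 13 entries (0.0833%), which included Tac1, Tmprss5, LOC683313, Bdnf and C1ql1. All 8 OVX-vehicle rats did so for 3 entries (0.0192%), namely C1ql1, Chsy1 and Ceacam9. Chsy1, an enzyme of chondroitin sulfate synthesis, and Ceacam9 are named here after their values were seen.

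**Figure D1:**
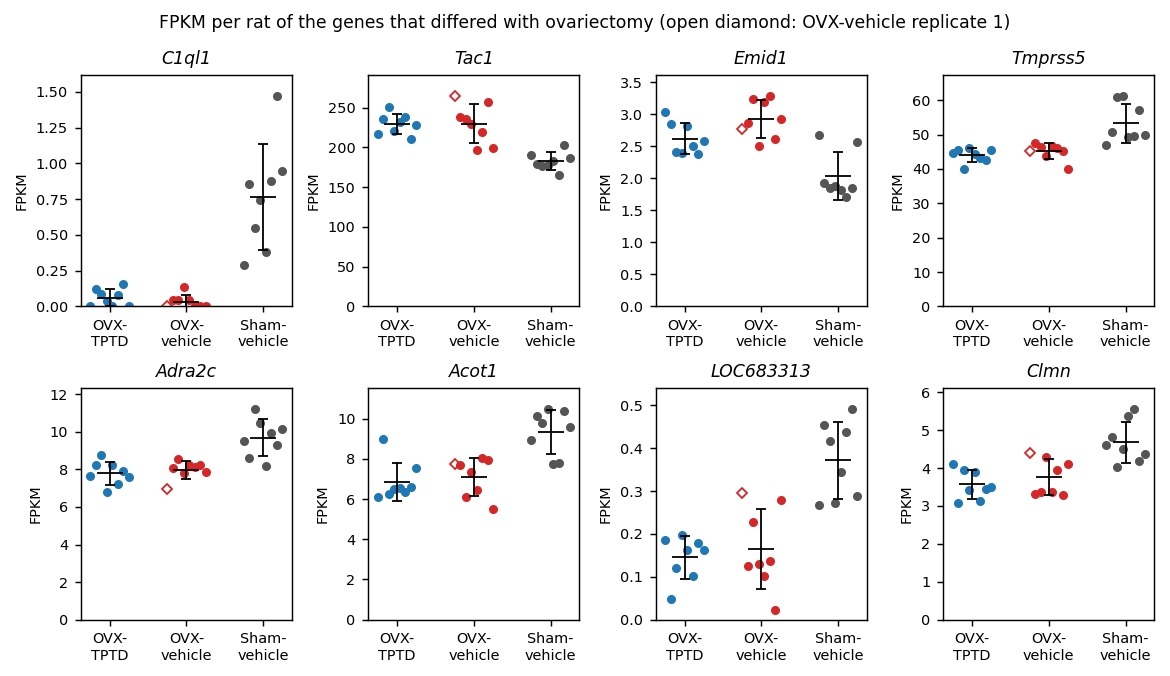
FPKM of the 8 genes in each rat (points) for the OVX-TPTD, OVX-vehicle and Sham-vehicle groups, with the mean and SD of 8 rats as bars; the open diamond is OVX-vehicle replicate 1. C1ql1 lies between 0 and 0.154 FPKM in the 16 OVX rats and between 0.293 and 1.47 FPKM in the Sham-vehicle rats, while the groups overlap in part for the other 7 genes.

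Tac1 (chr4:33638853-33646821 of rn6, plus strand) encodes the precursor of substance P and neurokinin A. It was at 210 to 251 FPKM in OVX-TPTD rats (median 230.4), 196 to 265 FPKM in OVX-vehicle rats (median 233) and 165 to 203 FPKM in Sham-vehicle rats (median 181). All 8 OVX-TPTD rats and 6 of 8 OVX-vehicle rats were above the highest Sham-vehicle rat, and OVX-vehicle replicate 1 had the highest value of all. Its pooled log2 difference was 0.32 (SE 0.047, adjusted p = 0.0035 in edgeR). The 2 OVX groups were close, with log2 differences of 0.32 for OVX-TPTD (edgeR adjusted p = 0.0173) and 0.32 for OVX-vehicle (edgeR adjusted p = 0.0269), and Tac1 was the only gene that passed in both single comparisons. The OVX-TPTD minus OVX-vehicle difference was −0.01, with a 95% interval from −0.12 to 0.10.

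The 250 bases before the start of Tac1 are shown because it led the genes tested. They were taken from RefSeq in the build GRCr8 (chr4:36645333-36645582, plus strand), a later build than the rn6 of the files. The capitals mark CGTCA, the core of a cAMP response element, whose match begins 206 bases before the start.
Tac1: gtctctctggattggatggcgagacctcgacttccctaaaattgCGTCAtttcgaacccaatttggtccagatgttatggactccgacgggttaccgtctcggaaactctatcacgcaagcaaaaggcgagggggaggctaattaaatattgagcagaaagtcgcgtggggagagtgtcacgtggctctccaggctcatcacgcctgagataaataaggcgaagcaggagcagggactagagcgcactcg
CGTCA was found on either strand of 18.2% of 33469 RefSeq promoters in a window of the same length. TGACC, the core of the estrogen response element, was not found in the window of Tac1. It was in the windows of 35.4% of all promoters and of 1 of the 7 genes called, LOC683313, and the full palindrome of the element, in which TGACC follows its reverse complement after 3 bases, was in 0.0239% of all promoters and in none of these 7. A match is a description of the letters only.

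The list of sensory neuropeptides had 14 of 20 members tested. Of these, Tac1 was called, 5 had an unadjusted p under 0.05 and a higher level, and 2 had one and a lower level, while 5.32% of all genes did so upward and 6.58% downward. The median log2 difference of the list was 0.07, beside 0.00 over all genes tested. Its transcripts were short, with a median width of 819 bases beside 2160 over all genes tested. The 2529 genes with the shortest transcripts had a median log2 difference of 0.05, and the part of width in this list was not tested. The list also holds genes that the study picked from these libraries, such as Tac1. The genes of calcitonin gene-related peptide did not pass the adjusted threshold in the pooled comparison. Calca was at 259.9 to 358 FPKM in OVX-TPTD rats (median 289), 221 to 337 FPKM in OVX-vehicle rats (median 269) and 214 to 309 FPKM in Sham-vehicle rats (median 223), and the 3 groups overlapped. Pooled over the OVX rats, the log2 difference was 0.26 (SE 0.0725, edgeR adjusted p = 0.245). Calcb, the second gene of this peptide, had a log2 difference of 0.25 (SE 0.081, edgeR adjusted p = 0.329).

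Nppb, which encodes a natriuretic peptide that signals itch in the mouse, was low in all groups. It was at 1.15 to 3.81 FPKM in OVX-TPTD rats (median 2.32), 0.514 to 2.77 FPKM in OVX-vehicle rats (median 1.23) and 0.184 to 1.23 FPKM in Sham-vehicle rats (median 0.495). All 16 OVX rats were above the Sham-vehicle median, and 7 OVX-TPTD and 4 OVX-vehicle rats were above the highest Sham-vehicle rat. The pooled log2 difference of 1.51 was large but uncertain (SE 0.357, edgeR adjusted p = 0.162). Gal, the galanin gene, was at 6.3 to 11.1 FPKM in OVX-TPTD rats (median 7.37), 6.17 to 9.8 FPKM in OVX-vehicle rats (median 7.71) and 8.48 to 15.6 FPKM in Sham-vehicle rats (median 9.91). In each OVX group, 6 rats lay below the lowest Sham-vehicle rat. The pooled log2 difference of Gal was −0.46 (SE 0.11, edgeR adjusted p = 0.174), and DESeq2 called Gal and Nppb (adjusted p = 0.0411 and 0.016).

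Penk, the proenkephalin gene, had a log2 difference of 0.30 (SE 0.109, edgeR adjusted p = 0.363), and Scg2, a granin of secretory vesicles, had −0.15 (SE 0.0553, edgeR adjusted p = 0.363). Ccl21, a chemokine gene, varied widely among rats, at 0.796 to 22 FPKM in OVX-TPTD rats (median 6.21), 2.09 to 6.11 FPKM in OVX-vehicle rats (median 3.31) and 3.31 to 19.5 FPKM in Sham-vehicle rats (median 9.81). Its pooled log2 difference was −0.90 (SE 0.377, edgeR adjusted p = 0.378). The 2 OVX groups gave −0.34 for OVX-TPTD and −1.47 for OVX-vehicle, and the difference between them was 1.12 (unadjusted p = 0.0236 and adjusted p = 0.995 in edgeR).

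Emid1 (chr14:85357222-85398532 of rn6, minus strand) encodes a secreted protein with an EMI domain and a collagen-like stretch. It was at 2.38 to 3.03 FPKM in OVX-TPTD rats (median 2.55), 2.5 to 3.29 FPKM in OVX-vehicle rats (median 2.89) and 1.71 to 2.68 FPKM in Sham-vehicle rats (median 1.86). All 16 OVX rats were above the Sham-vehicle median, and 3 OVX-TPTD and 6 OVX-vehicle rats were above the highest Sham-vehicle rat. In the pooled comparison the log2 difference was 0.44 (SE 0.0856, edgeR adjusted p = 0.0459), close to the threshold. It was called in 5 of 24 fits with 1 rat left out, and its adjusted p was 0.054 without OVX-vehicle replicate 1. With the 16 OVX rats fitted as 1 group, Emid1 was not called (edgeR adjusted p = 0.0537).

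Tmprss5 (chr8:53411316-53429420 of rn6, plus strand) encodes spinesin, a serine protease anchored in the cell membrane. It was at 39.9 to 46.2 FPKM in OVX-TPTD rats (median 44.5), 40.1 to 47.5 FPKM in OVX-vehicle rats (median 45.7) and 47 to 61.3 FPKM in Sham-vehicle rats (median 50.4). All 8 OVX-TPTD and 7 of 8 OVX-vehicle rats were below the lowest Sham-vehicle rat. Pooled over the OVX rats, the log2 difference was −0.27 (SE 0.0435, edgeR adjusted p = 0.011). On their own, OVX-TPTD gave −0.28 (edgeR adjusted p = 0.0268) and OVX-vehicle −0.25 (edgeR adjusted p = 0.167, unadjusted p = 4.62e-05).

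Adra2c (chr14:80730307-80732010 of rn6, minus strand) encodes the alpha-2C adrenergic receptor, which inhibits transmitter release when noradrenaline binds it. It was at 6.82 to 8.75 FPKM in OVX-TPTD rats (median 7.78), 6.97 to 8.54 FPKM in OVX-vehicle rats (median 8.1) and 8.19 to 11.2 FPKM in Sham-vehicle rats (median 9.74). In each OVX group, 5 rats were below the lowest Sham-vehicle rat and all 8 were below the Sham-vehicle median. The pooled log2 difference was −0.30 (SE 0.0511, edgeR adjusted p = 0.0112). Adra2a, the alpha-2A receptor gene, had a difference of −0.27 with a wider error (SE 0.128, edgeR adjusted p = 0.41).

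Acot1 (chr6:107485088-107493080 of rn6, plus strand) encodes a cytosolic thioesterase that splits acyl-CoA into free fatty acid and coenzyme A. It was at 6.1 to 8.97 FPKM in OVX-TPTD rats (median 6.52), 5.49 to 8.04 FPKM in OVX-vehicle rats (median 7.52) and 7.72 to 10.5 FPKM in Sham-vehicle rats (median 9.66). All 16 OVX rats were below the Sham-vehicle median, and 7 OVX-TPTD and 6 OVX-vehicle rats were below the lowest Sham-vehicle rat. Its pooled log2 difference was −0.43 (SE 0.0758, edgeR adjusted p = 0.0169). Acot2, the near-identical neighbour on the same chromosome, had −0.06 (SE 0.0592, edgeR adjusted p = 0.673), and how reads were divided between the 2 genes is uncertain. Of 20 genes of fatty acid oxidation tested, Acot1 was the only 1 called, and the median log2 difference of the list was 0.00. Acot1 lost its call without Sham-vehicle replicate 2 (edgeR adjusted p = 0.0711) and without Sham-vehicle replicate 4 (edgeR adjusted p = 0.0509).

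LOC683313, which the deposited table describes as similar to a type 2 keratin and places at chr1:42966774-42971241 of rn6, had few counts. RefSeq in GRCr8 carries the same gene ID as Krt6c on chromosome 7, and reads may be shared within the keratin family, so its identity is uncertain. It was at 0.048 to 0.198 FPKM in OVX-TPTD rats (median 0.163), 0.023 to 0.297 FPKM in OVX-vehicle rats (median 0.133) and 0.269 to 0.492 FPKM in Sham-vehicle rats (median 0.380). All 8 OVX-TPTD and 6 of 8 OVX-vehicle rats were below the lowest Sham-vehicle rat, and OVX-vehicle replicate 1 was the highest of the OVX rats. Pooled over the OVX rats, the log2 difference was −1.27 (SE 0.24, edgeR adjusted p = 0.0377), and the gene was called in 13 of 24 fits with 1 rat left out. Its counts were 2 to 9 in OVX-TPTD, 1 to 13 in OVX-vehicle and 10 to 20 in Sham-vehicle rats. The gene thus passed the filter on low counts only through the group where it was high, and its call rests on that. A filter of at least 10 counts in every rat removed it. Of the 12 epithelial genes in a list of keratins and epithelial junction genes, 3 passed the filter and none had an unadjusted p under 0.05, while their summed level was 58.6 to 81.1 FPKM in OVX-TPTD rats, 64 to 81.0 FPKM in OVX-vehicle rats and 69 to 82.4 FPKM in Sham-vehicle rats.

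Clmn (chr6:128474272-128567267 of rn6, minus strand) encodes calmin, a membrane protein with actin-binding calponin homology domains. It was at 3.07 to 4.11 FPKM in OVX-TPTD rats (median 3.48), 3.29 to 4.39 FPKM in OVX-vehicle rats (median 3.66) and 4.02 to 5.56 FPKM in Sham-vehicle rats (median 4.55). All 16 OVX rats were below the Sham-vehicle median, and 7 OVX-TPTD and 5 OVX-vehicle rats were below the lowest Sham-vehicle rat. In the pooled comparison the log2 difference was −0.36 (SE 0.0703, edgeR adjusted p = 0.0426), and Clmn was called in 9 of 24 fits with 1 rat left out.

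Each OVX group was also set on its own against the same Sham-vehicle rats. In OVX-TPTD, 4 genes were called (0.0316% of the genes tested), namely Bdnf, Tac1, Tmprss5 and Adra2c. In OVX-vehicle, 1 gene was called, Tac1 (0.00791%). Between OVX-TPTD and OVX-vehicle, edgeR called 0 genes (0%), with 462 at an unadjusted p under 0.05, and DESeq2 called 1. In the pooled comparison, 1505 genes had an unadjusted p under 0.05 (11.9%).

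**Figure D2:**
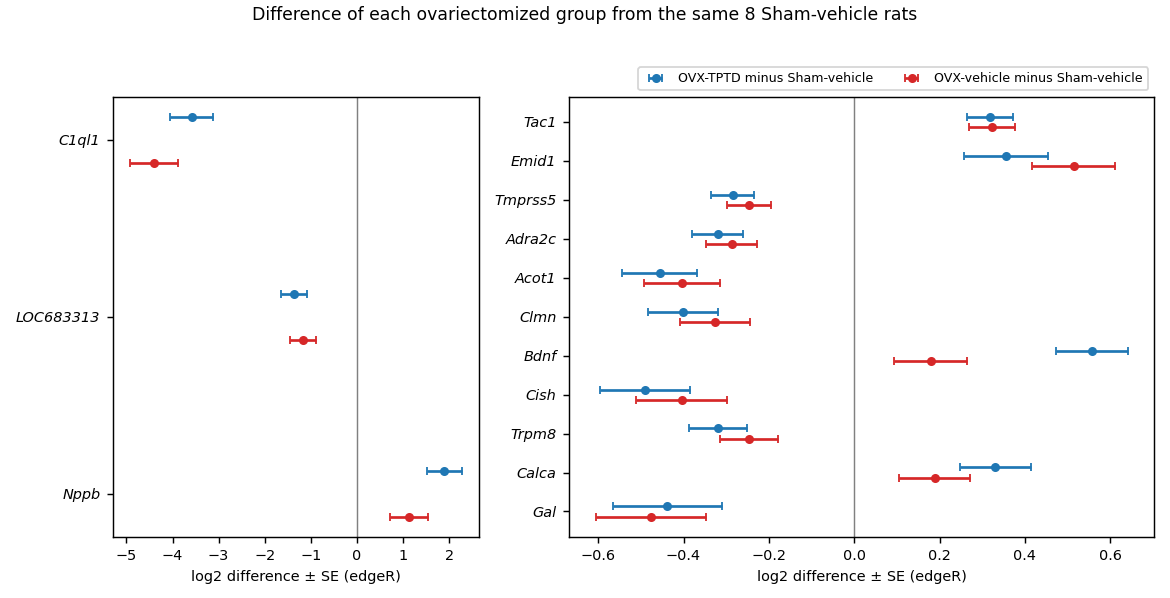
Log2 difference with its standard error for OVX-TPTD minus Sham-vehicle and OVX-vehicle minus Sham-vehicle, both against the same 8 Sham-vehicle rats, with genes of large differences on a wider axis at the left. The points of the 2 OVX groups lie on the same side of 0 for every gene shown, with the largest gap for Bdnf (0.56 and 0.18) among the genes on the right.

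Bdnf, Cish and Trpm8 had the next smallest p values and did not pass the pooled threshold among the 12645 filtered genes. All 3 passed in the fit without a filter that also called C1ql1 (edgeR adjusted p = 0.0479 for each of Bdnf, Cish and Trpm8), and DESeq2 called all 3, with an adjusted p of 0.00262 for Bdnf and 0.00425 for Trpm8. Bdnf, a neurotrophin made by sensory neurons, was at 4.02 to 5.91 FPKM in OVX-TPTD rats (median 5.09), 3.38 to 4.44 FPKM in OVX-vehicle rats (median 3.85) and 2.55 to 3.87 FPKM in Sham-vehicle rats (median 3.37). All 8 OVX-TPTD rats and 4 OVX-vehicle rats were above the highest Sham-vehicle rat. The pooled log2 difference was 0.37 (SE 0.0741, edgeR adjusted p = 0.0528). It was 0.56 (SE 0.084, edgeR adjusted p = 0.00565) in OVX-TPTD and 0.18 (SE 0.0849, edgeR adjusted p = 0.864) in OVX-vehicle, and the OVX-TPTD minus OVX-vehicle difference of 0.38 had an unadjusted p of 0.00011 and an adjusted p of 0.995 in edgeR.

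Trpm8, the cold- and menthol-gated channel, was at 14.8 to 21.6 FPKM in OVX-TPTD rats (median 17.6), 17.5 to 20.2 FPKM in OVX-vehicle rats (median 18.4) and 19.3 to 25.2 FPKM in Sham-vehicle rats (median 21.7). In OVX-TPTD 7 rats and in OVX-vehicle 6 rats were below the lowest Sham-vehicle rat. Its pooled log2 difference was −0.28 (SE 0.0583, edgeR adjusted p = 0.0603). Of 18 nociceptor channel and receptor genes tested, none was called. In this list 16 had a negative log2 difference, with a median of −0.10. Beside 6.58% lower among all genes tested at an unadjusted p under 0.05, the list had 4, all lower. Besides Trpm8 these were Gfra3, the artemin receptor gene (−0.26, SE 0.0897), Hcn2, a pacemaker channel (−0.16, SE 0.061), and Scn10a, the sodium channel of nociceptors (−0.17, SE 0.08), with adjusted p values of 0.35, 0.378 and 0.417 in edgeR. In the fit without OVX-vehicle replicate 1, Gfra3 was at −0.12 in OVX-vehicle and −0.36 in OVX-TPTD. Hcn2 was at −0.04 and −0.22 there, Scn10a at −0.10 and −0.22, and Trpm8 at −0.25 and −0.32. The pooled values of Gfra3, Hcn2 and Scn10a thus described the OVX groups unequally. Over the alternatives other than leaving out 1 rat, the pooled Scn10a difference ran from −0.22 to −0.00072.

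Cish encodes a feedback inhibitor of cytokine and growth hormone signalling that is induced through the transcription factor STAT5. It was at 4.77 to 7.14 FPKM in OVX-TPTD rats (median 5.93), 4.47 to 8.38 FPKM in OVX-vehicle rats (median 6.05) and 6.9 to 10.3 FPKM in Sham-vehicle rats (median 8.14). In OVX-TPTD 7 rats and in OVX-vehicle 5 rats lay below the lowest Sham-vehicle rat, and OVX-vehicle replicate 1 was the lowest of all. In the pooled comparison the log2 difference was −0.45 (SE 0.0906, edgeR adjusted p = 0.0528; DESeq2 adjusted p = 0.00318).

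The 250 bases before the start of Cish in RefSeq (GRCr8, chr8:116850719-116850968, plus strand) are shown because the gene is known as a STAT5 target. The capitals mark TTCNNNGAA, the letters that STAT factors bind, with matches that begin 241, 230, 136 and 119 bases before the start.
Cish: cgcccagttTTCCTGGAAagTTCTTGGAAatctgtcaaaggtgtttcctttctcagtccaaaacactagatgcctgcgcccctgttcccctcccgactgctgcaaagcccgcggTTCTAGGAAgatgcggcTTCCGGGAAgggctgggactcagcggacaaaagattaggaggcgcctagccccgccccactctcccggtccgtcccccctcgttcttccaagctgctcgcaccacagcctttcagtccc
At least 1 such match was found in 7.67% of the 33469 promoters, and 4 or more in 2 of them (0.00598%). Matches describe the letters only, and STAT5 binding was not measured in these rats.

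Socs2, another STAT5 target that restrains the growth hormone receptor, was at 4.81 to 6.86 FPKM in OVX-TPTD rats (median 5.06), 3.84 to 5.29 FPKM in OVX-vehicle rats (median 4.57) and 5.22 to 9.54 FPKM in Sham-vehicle rats (median 5.59). In each OVX group, 6 rats lay below the lowest Sham-vehicle rat. The pooled log2 difference of Socs2 was −0.45 (SE 0.108, edgeR adjusted p = 0.181; DESeq2 adjusted p = 0.0438). Of 22 genes of growth hormone and insulin-like growth factor signalling tested, none was called in edgeR. This list, like the others, was chosen with earlier results of these data known, so its counts are a description. Of its genes, 19 had a negative log2 difference, with a median of −0.14. Beside 6.58% lower among all genes tested at an unadjusted p under 0.05, the list had 7, all lower.

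Among them were Stat5b, which carries the growth hormone signal to the nucleus, with a log2 difference of −0.19 (SE 0.0591, edgeR adjusted p = 0.319), and the binding proteins Igfbp5 (−0.37, SE 0.132, edgeR adjusted p = 0.363) and Igfbp6 (−0.36, SE 0.137, edgeR adjusted p = 0.365). The receptor gene Ghr was at −0.01 (SE 0.0474) and Igf1 at −0.15 (SE 0.109). The list medians were −0.15 in OVX-TPTD and −0.14 in OVX-vehicle, both against the same Sham-vehicle rats.

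**Figure D3:**
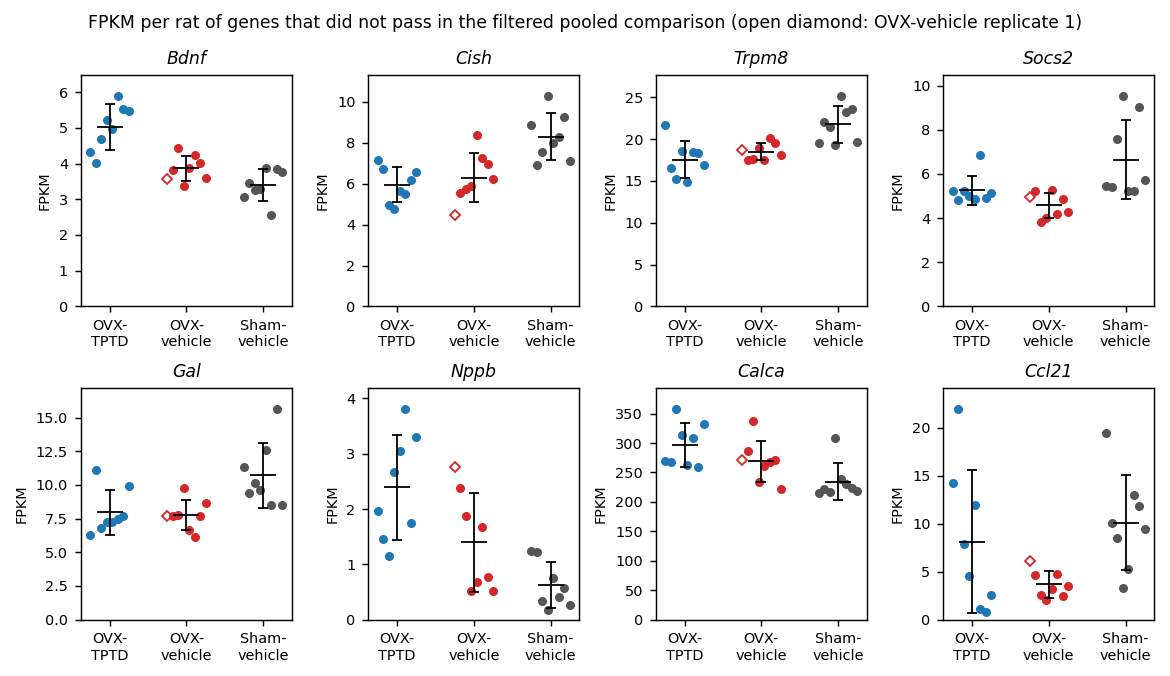
FPKM in each rat (points) of 8 genes that did not pass in the pooled comparison with the filter on low counts, for the OVX-TPTD, OVX-vehicle and Sham-vehicle groups, with the mean and SD of 8 rats as bars; the open diamond is OVX-vehicle replicate 1. Bdnf separates OVX-TPTD from Sham-vehicle rats, Cish and Socs2 lie below the Sham-vehicle median in 15 of 16 OVX rats, and Ccl21 spans 0.796 to 22 FPKM within OVX-TPTD.

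The receptors of ovarian hormones themselves showed no call. Esr1, the estrogen receptor alpha gene, was at 0.702 ± 0.114 FPKM in OVX-TPTD rats, 0.7 ± 0.125 FPKM in OVX-vehicle rats and 0.755 ± 0.233 FPKM in Sham-vehicle rats (SD, n = 8 each). Pooled over the OVX rats, the log2 difference was −0.13 with a 95% interval from −0.42 to 0.17. Pgr, the progesterone receptor gene and a known estrogen target in the uterus, was at 0.933 ± 0.264, 0.932 ± 0.141 and 0.98 ± 0.197 FPKM in OVX-TPTD, OVX-vehicle and Sham-vehicle rats (SD, n = 8 each), with an interval from −0.35 to 0.19. Gper1, a membrane receptor that responds to estrogen, had a log2 difference of −0.24 with an interval from −0.60 to 0.11. Levels of Esr1, Pgr and Gper1 were near 1 FPKM or below, which limits what could be detected.

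Of 18 estrogen receptor and estrogen-responsive genes tested, none was called, 4 had an unadjusted p under 0.05, all lower, and the median log2 difference was −0.05. Over all genes tested, 5.32% were higher and 6.58% lower at that level. One of the 4 was Kcnk2, a mechanically gated potassium channel (−0.27, SE 0.0903, edgeR adjusted p = 0.35). Of 14 genes of steroid synthesis and metabolism tested, none was called, 4 had an unadjusted p under 0.05 upward and 1 downward. Hsd11b1, which makes active glucocorticoid from its inactive form, was at 3.75 ± 0.581 FPKM in OVX-TPTD rats, 3.73 ± 0.441 FPKM in OVX-vehicle rats and 3.12 ± 0.491 FPKM in Sham-vehicle rats (SD, n = 8 each), with a log2 difference of 0.25 (SE 0.0902, edgeR adjusted p = 0.363). Hsd11b2, the enzyme of the reverse reaction, had −0.73 (SE 0.237, edgeR adjusted p = 0.329), and Hsd17b12, of long-chain fatty acid elongation, had 0.12 (SE 0.0338, edgeR adjusted p = 0.272).

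Receptors and peptidases of the neuropeptides (22 tested) had 1 call, Adra2c, which this list also held. Calcrl, part of the receptor of calcitonin gene-related peptide, had a log2 difference of 0.26 (SE 0.103, edgeR adjusted p = 0.378), and Oprd1, the delta opioid receptor gene, had 0.30 (SE 0.142, edgeR adjusted p = 0.413). Of 32 potassium channel genes, 24 had a negative log2 difference and 7 an unadjusted p under 0.05, all lower, with a median of −0.09. Of 18 calcium channel genes, 17 had a negative log2 difference and 3 an unadjusted p under 0.05, all lower, with a median of −0.11. Potassium channel medians were −0.13 in OVX-TPTD and −0.03 in OVX-vehicle, and calcium channel medians −0.12 and −0.07. The pooled medians thus described the OVX groups unequally. No channel gene of these lists was called, and 6.58% of all genes tested were lower at an unadjusted p under 0.05.

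Cell type markers were read beside these values. The mast cell and granulocyte list had 9 of 14 members tested, all with a negative log2 difference (median −0.59). Where 6.58% of all genes tested were lower at an unadjusted p under 0.05, 4 of its members were. These were the mast cell proteases Tpsb2 (−1.10, SE 0.399), Cma1 (−0.96, SE 0.346) and Mcpt1l1 (−0.84, SE 0.336) and the Fc receptor subunit Ms4a2 (−0.47, SE 0.211), none of which passed after adjustment. Their levels were low, and the list summed to 9.52 to 23.4 FPKM in OVX-TPTD rats (median 13.9), 13 to 25.2 FPKM in OVX-vehicle rats (median 16.5) and 16.8 to 29.4 FPKM in Sham-vehicle rats (median 19.1), with overlap between the groups. The part of these cells in the other results was not tested.

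Pan-neuronal genes had a median log2 difference of −0.01 and no member with an unadjusted p under 0.05. Satellite glial genes had a median of −0.02 and endothelial genes 0.00. Myelinating Schwann cell genes had a median of 0.05, with 1 of 16 members under an unadjusted p of 0.05, Mbp, the myelin basic protein gene (0.23, SE 0.0618, edgeR adjusted p = 0.245). The OVX groups lay on opposite sides of 0 in 2 of these lists. Medians were −0.05 in OVX-TPTD and 0.06 in OVX-vehicle for endothelial genes, and −0.03 and 0.14 for myelinating Schwann cell genes. The perineurial and meningeal barrier list had a median of −0.19, with 3 of 10 members lower at an unadjusted p under 0.05, beside 6.58% of all genes. Its summed level was 274 to 1027 FPKM in OVX-TPTD rats, 317 to 629 FPKM in OVX-vehicle rats and 444 to 819 FPKM in Sham-vehicle rats.

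Genes of the protein synthesis and respiration machinery had small differences, nearly all of one sign. All 36 cytosolic ribosomal protein genes had a positive log2 difference (median 0.11), with 6 at an unadjusted p under 0.05 and none called. Of 30 respiratory chain genes, 29 had a positive difference (median 0.08). Interferon-stimulated genes had a median of 0.22 over 35 genes, with 8 at an unadjusted p under 0.05, all higher, beside 5.32% of all genes. Their median was 0.51 in OVX-TPTD and 0.02 in OVX-vehicle, both against Sham-vehicle, and so the pooled value described the 2 groups unequally.

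**Figure D4:**
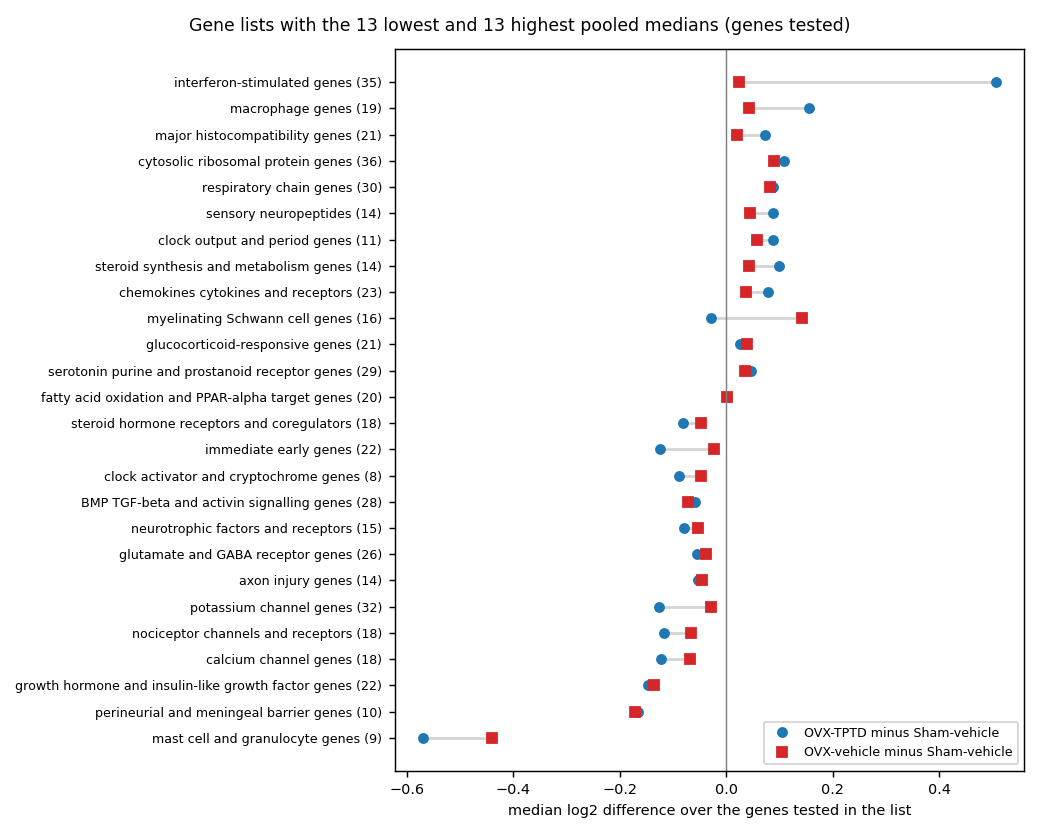
Median log2 difference over the genes tested of each list, for OVX-TPTD minus Sham-vehicle (circles) and OVX-vehicle minus Sham-vehicle (squares), against the same Sham-vehicle rats, for the 13 lists with the highest and the 13 with the lowest pooled medians among lists of 8 or more genes tested. Growth hormone and insulin-like growth factor genes lie at −0.15 and −0.14, and interferon-stimulated genes lie at 0.51 in OVX-TPTD and 0.02 in OVX-vehicle.

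Differences followed the width of the transcript. Over 5 equal groups of genes from the shortest to the longest transcripts, the median pooled log2 difference was 0.05, 0.02, 0.00, −0.02 and −0.04. Among the 2529 genes with the shortest transcripts, 244 were higher and 45 lower at an unadjusted p under 0.05, and among the 2529 with the longest, 47 were higher and 350 lower. The median width was 525 bases for the ribosomal protein genes and 626.5 for the respiratory chain genes, against 3092 for the potassium channel and 3916.5 for the calcium channel genes, beside 2160 over all genes tested. The trend was present for OVX-TPTD (0.06 in the shortest and −0.06 in the longest) and for OVX-vehicle (0.05 and −0.03), both against Sham-vehicle, and its part in the list medians was not tested. After the trend was removed from each rat, 6 genes were called, namely Tac1, Tmprss5, Adra2c, Acot1, LOC683313 and Bdnf (edgeR adjusted p = 0.0164 for Bdnf). Clmn and Emid1 lost their calls in that fit (edgeR adjusted p = 0.0758 and 0.062).

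Without OVX-vehicle replicate 1, 6 genes were called, all of the 7 but Emid1. Tac1 had a log2 difference of 0.30 (SE 0.0439, edgeR adjusted p = 0.00347), Tmprss5 −0.27, Adra2c −0.29, Acot1 −0.44, LOC683313 −1.36 and Clmn −0.38, with adjusted p values from 0.00347 to 0.0171 in edgeR. With this rat counted as Sham-vehicle, 3 genes were called, namely LOC683313, Clmn and Acot1, and Tac1 had a log2 difference of 0.23 (edgeR adjusted p = 0.479). The rat had the highest Tac1 value of the 24.

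Among the 24 fits that left out 1 rat, Tac1, Tmprss5 and Adra2c were called in all 24 and Acot1 in 22. The number of genes called ran from 3 to 12. It was 3 without Sham-vehicle replicate 2, 4 without each of Sham-vehicle replicates 4, 5 and 6, OVX-vehicle replicates 2 and 6 and OVX-TPTD replicates 3, 6 and 8, 11 without each of Sham-vehicle replicates 1 and 8, and 12 without OVX-TPTD replicate 1. Without Sham-vehicle replicates 2 and 3, which had the most ribosomal RNA, 2 genes were called, Tac1 and the interferon-induced gene Ifitm1. With the ribosomal RNA share in the model, 1 gene was called, Tac1, while Tmprss5, Adra2c and Acot1 had adjusted p values of 0.0896, 0.0924 and 0.112 in edgeR.

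**Figure D5:**
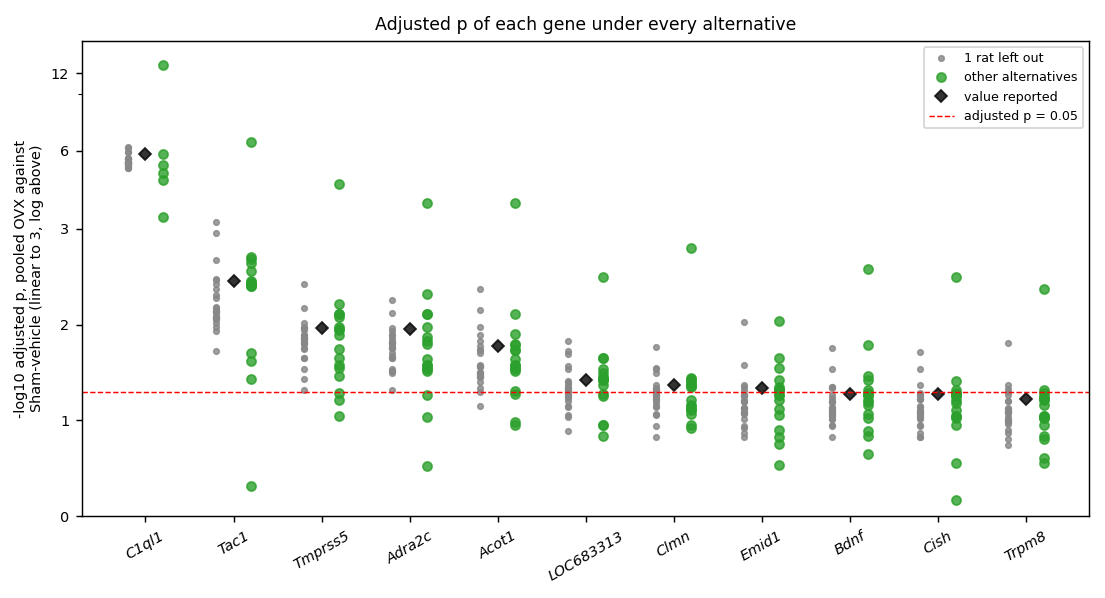
Adjusted p of the pooled comparison, as −log10, for 11 genes in the value reported (diamonds), in fits with 1 rat left out (grey) and under the other alternatives (green), with the threshold of 0.05 dashed; the axis is linear up to 3 and logarithmic above, and C1ql1 comes from fits without the filter. C1ql1 stays above the threshold in all of its fits, Tac1, Tmprss5 and Adra2c in all 24 fits with 1 rat left out, and Clmn and Emid1 cross it often.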

How the data were processed

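RNA of lumbar dorsal root ganglia was sequenced from 24 rats, 8 in each group, as stranded libraries of polyadenylated RNA. Reads were aligned to rn6 (TopHat2 2.0.14 and bcl2fastq 1.8.4 in the submitters' processing notes), and the authors deposited an estimated count of aligned reads for each entry and rat. The authors also deposited FPKM values, scaled by transcript width and by the total of each rat. Of the estimated counts, 86.4% were whole within 0.001, and all were rounded here. Positions are those of the deposited table, which had 17811 entries, and no column was without a sample.

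Genes were filtered with edgeR's filterByExpr, and 12645 were tested with edgeR 4.0.16 (quasi-likelihood, TMM) in R 4.3.3, in 1 fit over the 24 rats. Alternatives used DESeq2 1.42.0, limma 3.58.1 on log2(FPKM + 0.1) and log2(FPKM + 1), sva 3.50.0, other filters and scalings, covariates, thinning to 1 total, a replicate block and leaving out each rat. Fits without Sham-vehicle replicates 2 and 3, with the ribosomal RNA share, and those of C1ql1 beyond the plain fit without a filter were chosen after seeing the data. The procedure was tested on simulated data.

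The comparison, its members and the 50 gene lists were chosen with earlier results of these data known. The text names genes that hold in both groups, the 10 with the smallest p, Tac1, Calca, Gal, Adra2c and Ccl21, and members of hormone and neuropeptide lists. Other named genes, among them members of the channel and cell type lists, were chosen after their values were seen. The lists hold genes that the study picked from these libraries, such as Tac1. Sequences and shares of motifs come from RefSeq (GRCr8), where 8 of 10 genes asked for by gene ID were matched, and motifs were searched on both strands of the 250 bases before each start. Replicates are separate rats. In the 84 pairs of rats within groups, the chi-square averaged over genes ran from 5.44 to 38.3, above what sampling noise alone gives. Which genes carried these averages was not tested.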

Additional observations from a re-analysis of the deposited data

Results flagged for a closer look

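Of 120 groups of 8 rats looked at (40 genes in 3 groups), 8 held a rat set apart from the other 7, while chance gives about 1 in 20. OVX-vehicle replicate 4 had the highest C1ql1 of its group, at 0.133 FPKM, next to 0.0436 FPKM, and was still below all Sham-vehicle rats. Calca was at 309 FPKM in Sham-vehicle replicate 4, next to 239 FPKM, and the same rat had the highest Cma1, at 2.12 FPKM, next to 1.08 FPKM. Socs2 was at 6.86 FPKM in OVX-TPTD replicate 6, next to 5.24 FPKM. Calcb was at 219.9 FPKM in OVX-TPTD replicate 3, next to 183 FPKM. Cma1 was at 0.828 FPKM in OVX-TPTD replicate 2, next to 0.454 FPKM. Hcn2 was at 42.8 FPKM in OVX-TPTD replicate 7, next to 36.1 FPKM, and at 27.5 FPKM in OVX-vehicle replicate 1, next to 37.4 FPKM, the rat whose labels disagree.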

How the results depend on the processing

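Over 41 alternatives, each of the 7 genes kept its direction wherever it was tested. The number called in the pooled comparison, which equalled the number holding in both groups, was 26 in DESeq2 (with all 7), 11 without a filter on low counts (with all 7, and C1ql1, Bdnf, Cish and Trpm8), 4 with 1 surrogate variable, 4 with 4 cell type lists as covariates, 4 after thinning, 3 with OVX-vehicle replicate 1 as Sham-vehicle, 2 without Sham-vehicle replicates 2 and 3, and 1 with the ribosomal RNA share. An adjusted p under 0.05 in both single comparisons left 1 gene. With the 16 OVX rats fitted as 1 group, 6 genes were called, all of the 7 but Emid1. With 1 rat left out, the pooled and the holding counts ran from 3 to 12.

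For OVX-TPTD against Sham-vehicle, the count was 40 in DESeq2, 7 in limma on log2(FPKM + 1), 9 without TMM, 11 with the cell type lists, 1 with OVX-vehicle replicate 1 as Sham-vehicle, 2 without Sham-vehicle replicates 2 and 3, 2 with the ribosomal RNA share, and 1 to 14 with 1 rat left out. For OVX-vehicle it was 6 in DESeq2, 2 in each limma fit, 2 without a filter and 0 to 2 with 1 rat left out. It was 0 in edgeR with OVX-vehicle replicate 1 as Sham-vehicle (379 at an unadjusted p under 0.05), with 1 surrogate variable (538), with the cell type lists (647) and without Sham-vehicle replicates 2 and 3 (785). Between OVX-TPTD and OVX-vehicle, DESeq2 called 1.

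With the replicate block, the pooled count was 6 (4 of the 7 genes), with 10 for OVX-TPTD and 0 for OVX-vehicle (659 at an unadjusted p under 0.05). Rats with 1 number did not deviate together (r from −0.092 to 0.114 over 24 pairs, 1 over 0.1), so the number was not treated as a pairing. With lower against higher replicate numbers as a term, 10 genes were called, which included all 7, Bdnf and Cish. A shared effect of handling order was not tested. Pgr, near 0, changed sign without Sham-vehicle replicate 3 (0.0050, range −0.13 to 0.0050 with 1 rat left out) and with the ribosomal RNA share (0.0023). The cause of these changes was not tested. Depth limits genes such as C1ql1 and LOC683313, which rest on few counts, and 8 rats per group limit differences near the threshold.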

Other observations

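Of 20 genes of extracellular matrix proteases and inhibitors tested, 1 was called in the pooled comparison, Tmprss5, and 2 were higher and 4 lower in OVX rats at an unadjusted p under 0.05 (median −0.06 on the log2 scale). The other gene groups given here held no gene called. Over all genes tested, 5.32% were higher and 6.58% lower at an unadjusted p under 0.05. Of 22 heat shock and chaperone genes tested, 5 had an unadjusted p under 0.05, all lower in OVX rats, and the list median was −0.03 on the log2 scale. Of 23 chemokine, cytokine and receptor genes, 7 were higher and 3 lower at that level (median 0.06), and of 26 glutamate and GABA receptor genes, 2 were higher and 5 lower (median −0.08). Of 23 cholesterol synthesis genes, 1 was higher and 4 lower (median −0.03), and of 17 genes of parathyroid hormone receptors and signalling, 1 was higher and 4 lower (median −0.05). Immediate early genes, which mark recent activity of neurons, had 2 of 22 lower (median −0.07), and axon injury genes 1 of 14 lower (median −0.09). Heat shock genes summed to 4678 to 6338 FPKM in Sham-vehicle rats (median 4877). The sums were 4813 to 5589 FPKM in OVX-TPTD and 4704 to 5066 FPKM in OVX-vehicle rats. Chemokine, cytokine and receptor genes summed to 161 to 280 FPKM in Sham-vehicle rats (median 167). Their sums were 171 to 207 FPKM in OVX-TPTD and 163 to 190 FPKM in OVX-vehicle rats. In both lists the Sham-vehicle range was the widest.

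Among entries that only the fit without a filter tested, Vip, the gene of vasoactive intestinal peptide, had a pooled log2 difference of −1.32 (unadjusted p = 0.00101, adjusted p = 0.269 in edgeR), and it was chosen after its values were seen.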
